A study of Mus musculus with 15 samples.

Results

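Immediate early transcription factors are the genes of this report, 10 in all (Fos, Fosb, Fosl2, Jun, Junb, Egr1, Egr2, Atf3, Ier2 and Nr4a1) out of 56980 genes in the table. They were chosen by name, with earlier results of these data known. Each matched 1 row of the table through its GENCODE symbol, and all 10 passed the filter on low values in both tissues. Immediate early genes are transcribed within minutes of a stimulus such as growth factors, stretch, injury or contraction, from factors already present in the cell and without new protein synthesis. Their transcripts are short-lived, so a level reflects the recent past of a tissue. In skeletal and heart muscle they are known to respond to exercise, mechanical load and damage.

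The libraries were made from RNA of the tibialis anterior muscle (TA), a fast hindlimb muscle, and of the heart from DBA/2J-mdx mice, a dystrophin-deficient model of Duchenne muscular dystrophy. All mice carried this genotype, and they received either dasatinib and quercetin (D + Q), a drug pair used to remove senescent cells, or vehicle, 2 times per week. The TA groups started at 3 months of age and were collected at 5 months, after 2 months of treatment, with 4 D + Q mice (4 male) and 4 vehicle mice (2 male and 2 female). The heart groups started at 12 months and were collected at 16 months, after 4 months of treatment, with 3 D + Q mice (labelled as 1 male and 2 female) and 4 vehicle mice (2 male and 2 female). Tissue therefore cannot be told apart from age and treatment length, and sex differed between the treatment groups. No healthy mice were among these 15 libraries, and nothing in the labels ties a TA library to a heart library of the same mouse.

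Levels are given as TPM, a unit that scales reads for gene length and for the library total, and every library sums to 1000000 TPM. The number of reads is therefore unknown, and all precision comes from the spread between mice. Summed skeletal muscle fibre markers were 41605 to 53167 TPM in TA and 1330 to 1783 TPM in heart, and ventricular markers were 29.4 to 128 TPM in TA and 21394 to 28377 TPM in heart, as the tissue labels state. For 1 library, heart D + Q replicate 3, which is labelled male, the sex-linked transcripts read female. By transcripts, every D + Q heart was therefore female, set against vehicle hearts of both sexes. The heart treatment results are given with and without this library. Atrial markers summed to 382 to 427 TPM in the D + Q hearts and 862 to 4260 TPM in the vehicle hearts, and red cell markers to 26.8 to 122 TPM and 346 to 1231 TPM. The 4 D + Q TA libraries held 21830 to 24146 genes above 0, and the vehicle TA libraries 23956 to 24393. The heart groups did not overlap in this count, at 22579 to 22818 with D + Q and 24089 to 25378 with vehicle.

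Many immediate early promoters carry a CArG box, the element bound by serum response factor, or a cAMP response element (CRE, TGACGTCA), bound by CREB. The 500 bases upstream of each canonical transcript start (mouse GENCODE release M39, GRCm39) were searched on both strands. A CArG box was found in Fos, Fosb and Egr2, so in 3 of 10 members against 2.78% of 21631 promoters of protein-coding genes. The full CRE was found in Ier2, in 1 of 10 members against 1.95% of promoters. The core motif TGACG, which the full CRE contains, was found in 8 of 10 members against 25.8% of promoters, the exceptions being Fosl2 and Atf3. The AP-1 site TGANTCA was found in Fos, against 12.4% of promoters, and the EGR site GCGGGGGCG in Fosb, against 2.86%. A match is a description of the letters in this window, not a site of binding. Only 1 start per gene was used, so elements near other starts or outside the window were not looked for. The absence of a match, as for the CArG box in Egr1, therefore holds for this window only. Stretches of 120 bases are printed here for the 4 members with a CArG box or a full CRE, because these elements are what the Fos, Fosb, Egr2 and Ier2 promoters were searched for, with the motif in capitals. They are written 5′ to 3′ on the strand of the gene, which is the plus strand for Fos (chr12:85520345-85520464, bases -313 to -194) and Egr2 (chr10:67373572-67373691, bases -120 to -1). It is the minus strand for Fosb (chr7:19044133-19044252, bases -276 to -157) and Ier2 (chr8:85389484-85389603, bases -120 to -1).
Fos: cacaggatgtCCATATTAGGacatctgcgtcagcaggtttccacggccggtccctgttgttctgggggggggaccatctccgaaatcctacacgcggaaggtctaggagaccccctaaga
Fosb: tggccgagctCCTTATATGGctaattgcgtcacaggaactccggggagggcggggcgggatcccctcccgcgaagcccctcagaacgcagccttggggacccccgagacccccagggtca
Egr2: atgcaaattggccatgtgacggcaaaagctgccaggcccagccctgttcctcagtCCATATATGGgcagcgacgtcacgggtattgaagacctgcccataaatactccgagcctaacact
Ier2: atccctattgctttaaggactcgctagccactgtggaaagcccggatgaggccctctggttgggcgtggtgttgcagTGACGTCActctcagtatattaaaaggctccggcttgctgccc

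The CArG box of Fos lay at -303 to -294 and that of Fosb at -266 to -257, while Egr2 had one at -368 to -359 and another at -65 to -56. The CRE of Ier2 lay at -43 to -36. The remaining members are on chromosome 5 (Fosl2), 4 (Jun), 8 (Junb), 18 (Egr1), 1 (Atf3) and 15 (Nr4a1).

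**Figure D1:**
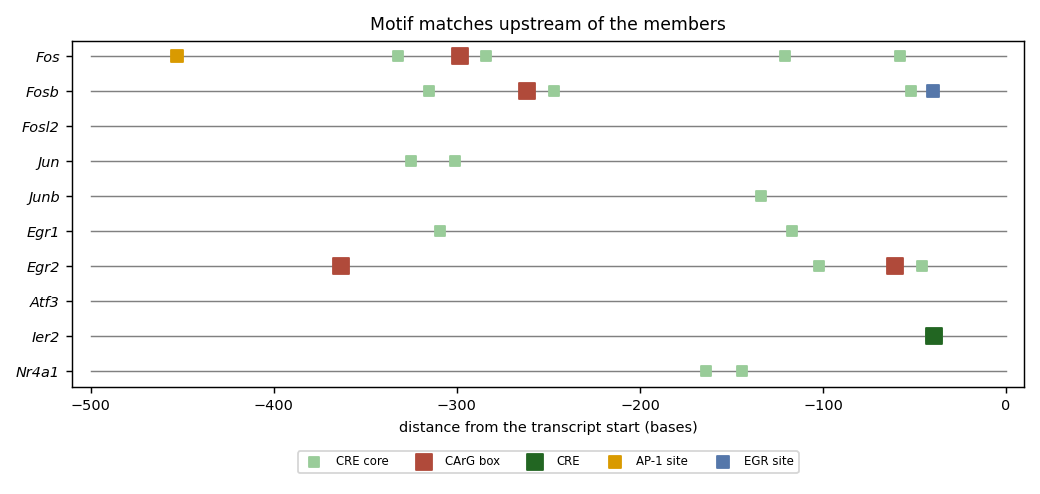
Matches to 5 motifs in the 500 bases upstream of the transcript start of each member (horizontal axis, distance in bases; 1 line per gene). Each square is a match on either strand, and in this window CArG boxes (large red squares) appear in Fos, Fosb and Egr2 only. Bases outside the window and other transcript starts were not searched.

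The FOS proteins are the AP-1 subunits that bind DNA only as heterodimers with JUN proteins. Fos was the member with the widest spread in TA. In the D + Q TA muscles its level was 555, 160, 9.19 and 29.6 TPM in replicates 1 to 4. In the vehicle TA muscles it was 287, 8.82, 223 and 55.2 TPM. D + Q replicates 1 and 2 and vehicle replicates 1 and 3 were high, the other 4 muscles were low, and the 2 groups overlapped. In heart, Fos was at 7.38, 14.8, 6.77 and 18.1 TPM in the 4 vehicle mice and 7.30, 4.84 and 3.15 TPM in the 3 D + Q mice. The highest D + Q heart lay above 1 vehicle heart, so these groups overlapped too.

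Fosb, whose protein and its truncated form ΔFosB are known from repeated stimulation, had the lowest mean level on the log2 scale of all members in each group and followed the same pattern in TA. Its level was 45.5, 10.1, 0.303 and 1.36 TPM with D + Q and 16.7, 0.891, 5.26 and 3.31 TPM with vehicle. The highest D + Q muscle was 150 times the lowest, and D + Q replicate 3 was below every heart. In heart it stayed near 1 TPM, at 0.721, 0.544, 0.984 and 1.21 TPM with vehicle and 0.643, 0.653 and 0.318 TPM with D + Q. Fosl2, which encodes the FOS-related subunit FRA-2, was steadier. It was at 137, 39.1, 19.2 and 28.1 TPM in D + Q TA and 36.2, 26.1, 66.4 and 29.9 TPM in vehicle TA. D + Q replicate 1 was again the highest muscle, followed by vehicle replicate 3. In heart, vehicle replicates 1, 3 and 4 lay close together at 29.1, 30.0 and 29.5 TPM, vehicle replicate 2 was lower at 18.02 TPM, and the D + Q hearts were at 26.6, 19.2 and 15.2 TPM. The TA and heart ranges of Fosl2 overlapped.

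The JUN proteins form AP-1 with FOS partners or with each other. Jun, the founding subunit, was at 144, 104, 47.5 and 68.5 TPM in D + Q TA and at 122, 52.1, 67.8 and 97.4 TPM in vehicle TA. These groups overlapped. Its heart levels were 47.5, 28.9, 36.6 and 47.2 TPM with vehicle and 34.0, 24.9 and 20.4 TPM with D + Q, and within each treatment every TA muscle was above every heart. Junb, whose protein can also restrain JUN and which is known to support muscle mass, ranged more widely in TA. The D + Q muscles were at 305, 73.4, 19.3 and 51.6 TPM and the vehicle muscles at 98.4, 15.7, 140 and 21.4 TPM. D + Q replicate 1 was the highest muscle and vehicle replicate 2 the lowest. In heart, Junb was at 17.9, 27.1, 16.2 and 29.9 TPM with vehicle and 16.1, 14.3 and 9.91 TPM with D + Q. The D + Q hearts were all below the vehicle hearts, but the gap between the nearest mice was small.

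The EGR genes encode zinc finger factors induced by growth factors through serum response factor. Egr1 had levels of 448, 72.0, 9.01 and 36.0 TPM in D + Q TA. In vehicle TA it was at 147, 18.3, 121 and 33.0 TPM. The D + Q group held both the highest and the lowest muscle. In heart, Egr1 was at 23.8, 45.7, 14.4 and 67.8 TPM with vehicle and at 10.9, 9.60 and 10.1 TPM with D + Q, so the 3 treated hearts were almost equal and all were below the 4 vehicle hearts. Egr2, known for its part in myelinating Schwann cells as well as in early responses, was lower. It was at 24.5, 5.92, 1.06 and 4.41 TPM in D + Q TA and at 9.29, 1.89, 11.2 and 3.90 TPM in vehicle TA. The heart levels were 4.87, 1.28, 1.37 and 4.81 TPM with vehicle and 1.38, 1.26 and 0.533 TPM with D + Q. In the vehicle hearts both males (replicates 1 and 4) were high and both females were at the level of the treated hearts.

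Atf3 encodes a stress-induced bZIP factor that is known as a repressor when it acts alone. It was at 427, 132, 9.91 and 27.6 TPM in D + Q TA and 52.4, 20.5, 66.3 and 84.0 TPM in vehicle TA. Here the vehicle muscles lay between the extremes of the D + Q muscles, which spanned 43.1 times from lowest to highest. In heart it was at 19.5, 2.75, 18.1 and 23.4 TPM with vehicle and 13.3, 11.5 and 4.41 TPM with D + Q, and vehicle replicate 2 was the lowest heart. Ier2, a small nuclear protein of the early response, was at 66.6, 14.6, 3.43 and 12.2 TPM in D + Q TA and 28.4, 7.52, 24.8 and 5.15 TPM in vehicle TA. Its heart levels were 7.62, 14.8, 8.25 and 13.8 TPM with vehicle and 7.82, 6.85 and 5.82 TPM with D + Q, within the range of the TA muscles. Nr4a1, an orphan nuclear receptor tied to glucose use and growth in muscle, departed from the other members. Its TA levels had the smallest SD between mice when both groups were pooled, at 155, 163, 124 and 68.3 TPM with D + Q and 173, 72.5, 149 and 84.8 TPM with vehicle. The heart levels were 38.3, 26.5, 35.0 and 59.3 TPM with vehicle and 38.0, 44.5 and 23.4 TPM with D + Q, all below the lowest TA muscle. D + Q replicate 3, the lowest or next to lowest muscle for the other 9 members, was not low for Nr4a1.

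**Figure D2:**
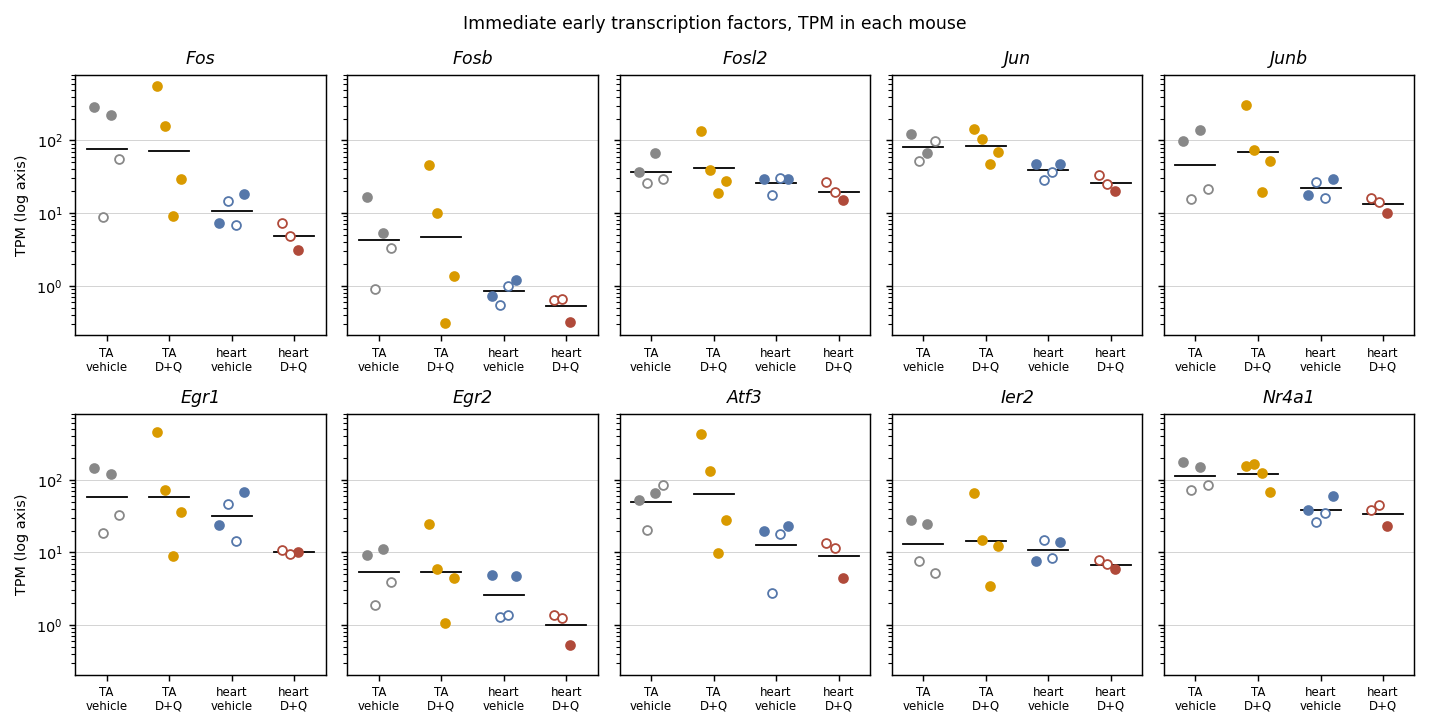
TPM (log axis) of each member in each mouse of the 4 groups, with filled circles for mice labelled male, open circles for mice labelled female, and a bar at the mean of log2(TPM + 0.5) brought back to TPM. The TA groups overlap for all 10 genes, while Jun and Nr4a1 show TA muscles above the hearts of the same treatment.

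The spread between mice of the same group was the main feature of these genes in TA. It was measured as the SD of log2(TPM + 0.5) around the group means. In TA it ran from 0.59 for Nr4a1 to 2.43 for Fos, with a median of 1.52 over the 10 members against 0.28 over all 16298 genes tested. All 10 members lay above 0.57, the value that 90% of genes stay below. Fos varied more than 99.8% of genes, Fosb (2.13) more than 99.8%, Egr1 (1.93) more than 99.6%, Atf3 (1.79) more than 99.5% and Junb (1.59) more than 99.3%. Jun (0.62) and Nr4a1 were near the edge, above 92.0% and 90.9% of genes. Members and lists were chosen with earlier results of these data known, so their ranks among all genes are a description only.

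In heart the SD ran from 0.30 for Fosb to 1.16 for Atf3, with a median of 0.44 against 0.18 over 16132 genes, and 5 of 10 members lay above the value of 0.41 that 90% of genes stay below. These were Fos (0.63), Egr1 (0.76), Egr2 (0.75), Atf3 and Nr4a1 (0.48). Fosb was near 1 TPM in heart, where the added 0.5 shrinks its SD. Its highest heart was 2.05 times its lowest with D + Q and 2.23 times with vehicle. For Jun, with a larger SD of 0.35, these were 1.66 and 1.64 times. The spread of Egr1 in heart lay within the vehicle group, where the SD was 0.98 against 0.09 in the D + Q group. Every member had a larger pooled SD in TA than in heart, although in the vehicle mice alone Atf3 had an SD of 0.88 in TA and 1.34 in heart. The TA and heart mice differed in age, so a tissue difference in spread cannot be told apart from an age difference. In bulk tissue, fewer cells of a type and less RNA per cell cannot be told apart.

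**Figure D3:**
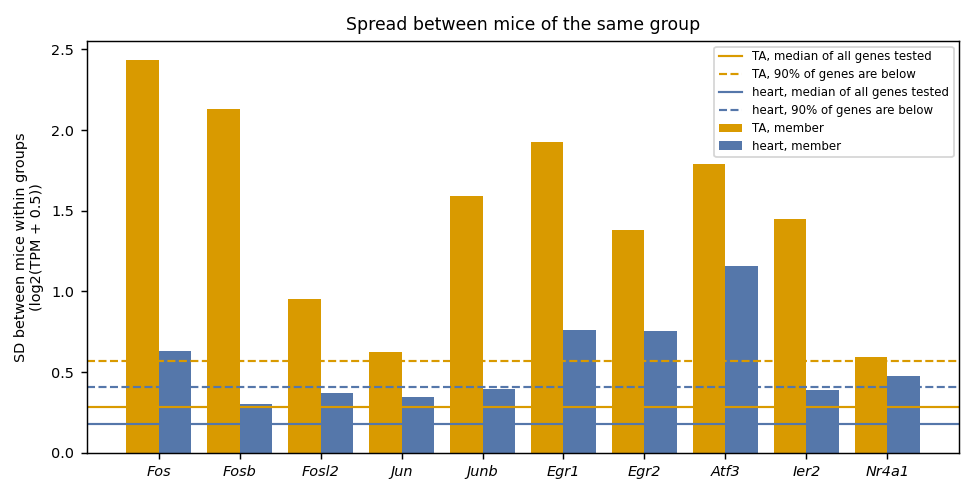
SD of log2(TPM + 0.5) between mice of the same group, pooled over the 2 treatment groups, for each member in TA and heart, with the median of all genes tested (solid lines) and the value that 90% of genes stay below (dashed lines). All 10 TA bars stand above the dashed TA line, and 5 of the 10 heart bars stand above the dashed heart line.

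The members were high or low together in the same TA muscles. D + Q replicate 1 had the highest level of 9 of 10 members, the exception being Nr4a1, which was highest in vehicle replicate 1. D + Q replicates 1 and 2 were among the 4 highest muscles for all 10 members, and vehicle replicates 1 and 3 for 9 each. D + Q replicate 3 was the lowest muscle for 7 members, and vehicle replicate 2 was among the lowest 2 for 9. The summed level of the 10 members was 2306, 775, 243 and 328 TPM in the D + Q muscles and 971, 224, 876 and 418 TPM in the vehicle muscles. Both groups thus held high and low muscles. Over the deviations of the 8 muscles from their group means, the correlation of each member with the mean of the other 9 was 0.64 for Nr4a1, 0.85 for Jun, 0.87 for Atf3 and 0.90 to 0.99 for the other 7. All 45 pairs of members had a correlation above 0, with a median of 0.87 and a lowest value of 0.47, for Atf3 and Nr4a1. These points are 8 mice that share libraries and group means, and D + Q replicates 1 and 3 lie at the ends.

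In the 7 hearts the members moved together less closely. The median over the 45 pairs was 0.45, and 37 pairs were above 0, with a lowest value of -0.34 for Atf3 and Ier2. Vehicle replicate 4 had the highest level of 6 members, and D + Q replicate 3 had the lowest of 8. The summed level was 197, 181, 168 and 295 TPM in the vehicle hearts and 156, 138 and 93.3 TPM in the D + Q hearts. Every D + Q sum was below every vehicle sum.

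**Figure D4:**
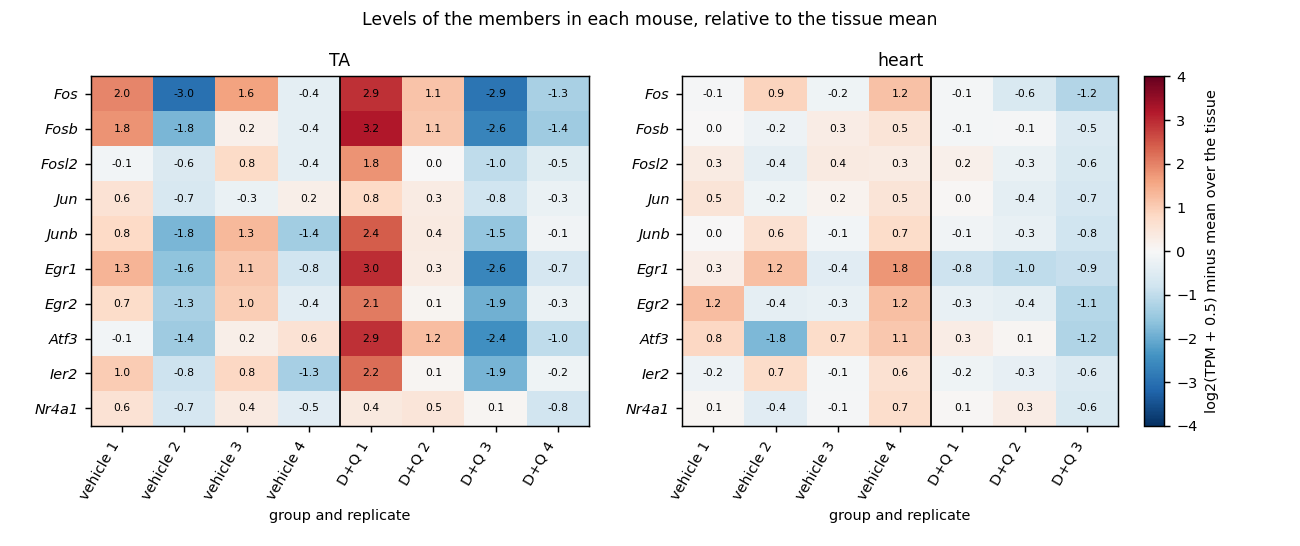
Log2(TPM + 0.5) of each member in each mouse, minus the mean of the gene over all mice of that tissue (colour scale, values printed in the cells), with the vehicle mice left of the black line and the D + Q mice right of it. The TA panel shows columns of 1 colour, red in D + Q replicate 1 and blue in D + Q replicate 3 for 9 of 10 members.

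Marker sums of other cell types were set beside this order of the muscles. Summed neutrophil markers were 29.6, 6.08, 7.52 and 26.9 TPM in the D + Q muscles and 4.71, 24.7, 25.9 and 6.69 TPM in the vehicle muscles, so the high muscles held both the highest and the lowest of them. Macrophage markers were 574, 673, 341 and 513 TPM and 436, 464, 490 and 272 TPM, and satellite cell and regenerating fibre markers were 125, 88.3, 111 and 147 TPM and 92.6, 103, 105 and 136 TPM. D + Q replicates 1 and 2 had the highest macrophage sums. Red cell markers were 47.2, 27.8, 23.9 and 40.0 TPM in the D + Q muscles and 52.4, 22.6, 49.7 and 14.9 TPM in the vehicle muscles, with D + Q replicate 1 and vehicle replicates 1 and 3 the highest and D + Q replicate 3 and vehicle replicates 2 and 4 the lowest. The part of macrophages and of red cells in the levels was not tested. Within the vehicle TA muscles, both males were above both females for 8 of 10 members, all but Jun and Atf3, which 10.9% of genes tested showed. The 4 D + Q muscles were all from males and held both high and low levels. In the vehicle hearts, both males were above both females for 4 of 10 members (Jun, Egr2, Atf3 and Nr4a1), against 4.35% of genes. The part of sex in these differences was not tested.

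The wider early response followed the members in TA. Of 29 other early response genes, 27 were highest in D + Q replicate 1, as were 5 of 5 other EGR and NR4A genes tested, 9 of 12 other AP-1 and partner genes and 8 of 14 feedback inhibitors, against 15.8% of all genes tested. Of 17 upstream regulators, such as serum response factor (Srf) and the kinases, 1 was highest there. The SD between mice was above the value that 90% of genes stay below for 24 of the 29 early response genes, 4 of 5 EGR and NR4A genes tested, 9 of 14 feedback inhibitors and 5 of 12 AP-1 genes, and for 0 of the 17 upstream regulators, whose median SD was 0.18. Srf itself ran from 29.4 to 46.8 TPM over the 8 muscles. Vehicle replicate 2, which was low in the members, was the highest muscle for 10 of the 17 upstream regulators, against 40.2% of all genes tested.

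The genes whose deviations were most like the mean of the members were picked from all genes tested over the 8 TA muscles. Btg2, an antiproliferative early response gene, was first with a correlation of 0.99 and ran from 14.1 to 375 TPM. It was followed by Gm45153, Apold1, an early response gene of endothelial cells that ran from 1.29 to 28.9 TPM, Coq10b, Gm40477, Gm56741, Cxcl9 and Maff, a small MAF protein, all at 0.97 to 0.98. Btg2 and Maff were on the early response lists used here. In the 7 hearts the first 8 were Maf1, Gm38283, Ttc38, Gm15743, Adra1a, Scara5, BC028528 and Gm10171, and no list gene was among them. Maf1 correlated at 0.99 although it ran only from 36.5 to 41.2 TPM. Some of the genes in both tissues were near the floor, such as Gm38283 in heart (0.0913 to 0.957 TPM) and Gm45153 in TA (0.263 to 0.824 TPM). In each tissue the 8 were the highest of all genes tested over few mice, so high correlations follow from the choice itself.

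In TA, the comparison of D + Q with vehicle asks whether the treatment moved these genes. No member passed the test. With limma and 1 surrogate variable in the model, 0 of 10 members were called higher or lower at an adjusted p under 0.05 and a log2 fold change beyond 0.5, as were 0% of all genes in either direction. At the same thresholds the study reported TA genes called in both directions with its count test, which was not run here. The 0 calls therefore describe this fit only. At an unadjusted p under 0.05 and the same fold, 0 of 10 members were lower or higher, where 1.72% of all genes were lower and 0.491% higher. No member had groups that did not overlap, against 1.25% of genes lower and 0.264% higher. The fitted log2 fold changes were below 0 for 9 members, with a median of -0.35 against -0.07 over all genes. That of Fos was -0.86 (SE 1.02), that of Egr1 -0.75 (SE 0.64), that of Atf3 -0.20 (SE 0.77) and that of Nr4a1 0.05 (SE 0.34), each with an adjusted p of 0.999 by limma. The sign depended on the model. With no covariate the median over the members was 0.11, with Egr1 at 0.000056 and Atf3 at 0.35. With labelled sex in place of the surrogate variable, it was -0.81. The surrogate variable was 0.70 in D + Q replicate 1 and -0.42 in replicate 3, which had the highest and the lowest mean log2 level of the members. SEs of 0.27 (Fosl2) to 1.02 on the log2 scale leave changes of that size undetectable with 4 mice per group.

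In heart, all 10 members had fitted log2 fold changes below 0 with D + Q, with labelled sex in the model. The median was -0.61 against -0.0025 over all 16132 genes. By limma with adjusted p-values, 0 of 10 members were called lower, where 0.211% of all genes were lower and 0.105% higher. At an unadjusted p under 0.05 and the same fold, 5 of 10 members were lower (Fos, Jun, Junb, Egr1 and Ier2) against 3.79% of all genes, and none was higher, against 1.3% of all genes. Junb and Egr1 had groups that did not overlap, D + Q lower, which 5.57% of genes showed.

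Egr1 had the largest difference of the members, with a log2 fold change of -1.55 (SE 0.47, limma adjusted p = 0.166). Fos followed at -1.12 (SE 0.40, limma adjusted p = 0.220), then Egr2 at -0.95 (SE 0.44) and Junb at -0.75 (SE 0.26, limma adjusted p = 0.198). Ier2 was at -0.65 (SE 0.25), Jun at -0.57 (SE 0.23), Atf3 at -0.43 (SE 0.74), Fosb at -0.40 (SE 0.24), Fosl2 at -0.40 (SE 0.24) and Nr4a1 at -0.15 (SE 0.31), with limma adjusted p-values of 0.243 to 0.844. None of these passed the threshold.

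These heart values rested in part on D + Q replicate 3, the library whose sex label and transcripts differ and the lowest heart for 8 members. Without it, the median of the members was -0.14 against -0.014 over 15963 genes. At an unadjusted p and the fold, 0 of 10 members were lower, where 646 of all genes were lower and 264 higher. Egr1 was at -1.29 (limma adjusted p = 0.481) and Fos at -0.71 (limma adjusted p = 0.616), while Atf3 was at 0.72 and Nr4a1 at 0.43. The other 6 were at -0.0073 (Egr2), -0.039 (Fosl2), -0.12 (Fosb), -0.16 (Jun), -0.46 (Junb) and -0.57 (Ier2), so the difference of Egr2, the third in size with all hearts, was near 0. The count of members lower at an unadjusted p was 2 without D + Q replicate 2 and 3 without vehicle replicate 4. With sex read from the transcripts in place of the label, every D + Q heart was female. In that fit 1 of 10 members was lower at an unadjusted p, and Atf3 and Nr4a1 were at 0.26 and 0.16. For these counts of 2, 3 and 1, the shares of all genes at an unadjusted p are not given. The counts therefore do not show whether the members differ from all genes in those fits. Several other measures did not overlap between the D + Q hearts and the vehicle hearts. The atrial and red cell sums and the genes above 0 were lower in every D + Q heart, as were fibroblast markers (422 to 492 TPM against 520 to 753 TPM) and the share of TPM in the 10 highest genes (45.4% to 47.3% against 50.1% to 50.7%), and ventricular markers were higher (26781 to 28377 TPM against 21394 to 23702 TPM). Their part in this comparison was not tested. Among the vehicle hearts, replicate 2 had the highest atrial sum (4260 TPM) and was the lowest of the 4 for 6 members and the highest for 1.

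**Figure D5:**
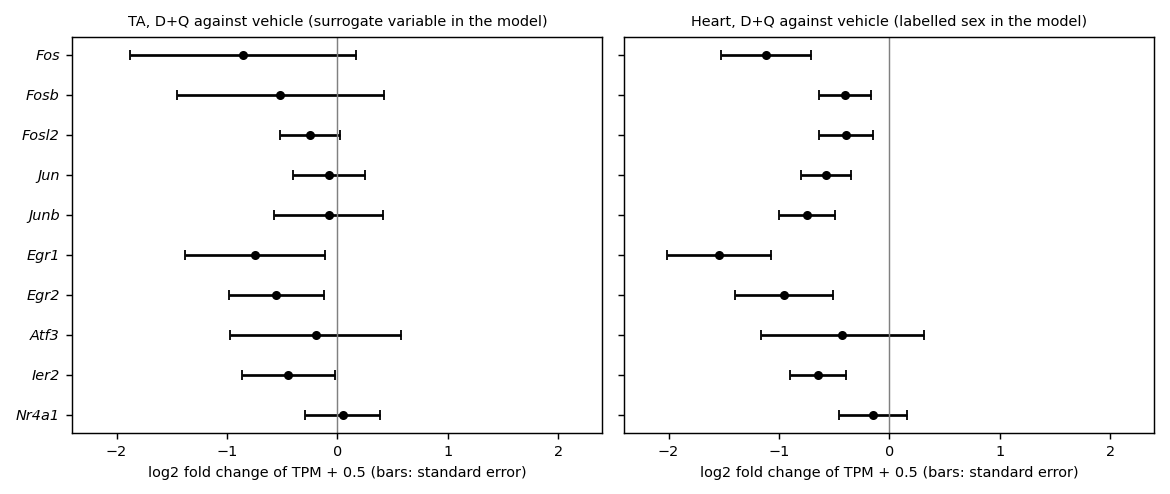
Log2 fold change of TPM + 0.5 with D + Q against vehicle for each member, with bars of 1 standard error, in TA (left, surrogate variable in the model) and heart (right, labelled sex in the model). The heart points all lie below 0, from -1.55 to -0.15, and the TA points from -0.86 to 0.05.

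The treatment difference between the tissues was tested with an interaction term over all 15 libraries, labelled sex in the model. By limma, 0 of 10 members were called, where 0.056% of all genes were called higher and 0.0056% lower. At an unadjusted p under 0.05 and the same fold, 0 of 10 members passed in either direction, where 2.14% of all genes were higher and 1.46% lower. The median of the members was 0.37 on the log2 scale (TA minus heart), with limma adjusted p-values of 1.00 for all 10. The values below 0 in heart are thus not shown to differ from those in TA.

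Between the tissues, all 10 members had higher fitted levels in TA than in heart under both treatments. In vehicle mice, 2 of 10 members were called higher in TA, where 22.5% of all genes were. Nr4a1 had a log2 difference of 1.55 (SE 0.32, limma adjusted p = 0.00136) and Jun one of 1.03 (SE 0.33, limma adjusted p = 0.0200), and these were the 2 members whose groups did not overlap, against 25.9% of genes. The member with the largest difference was Fos, at 2.75 (SE 1.12, limma adjusted p = 0.0599), which missed the threshold with its wide spread, and Ier2 had the smallest at 0.27 (SE 0.68). The median was 1.05 against 0.16 over all 17868 genes. Rescaling the libraries by median of ratios moved the median of all genes by -0.16 in both treatments, left 47.0% of all calls higher in TA where 61.4% had been in vehicle mice and 47.5% where 61.7% had been in D + Q mice, and kept Nr4a1 (1.36) but not Jun (0.84, limma adjusted p = 0.0597) among the calls in vehicle mice. Jun also lost its call without TA vehicle replicate 1 (0.84), TA vehicle replicate 4 (0.88) or heart vehicle replicate 2 (0.90), and Fos gained one without TA vehicle replicate 2 (3.68) and with sex read from the transcripts (limma adjusted p = 0.0488).

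In D + Q mice the same 2 members were called, against 21.4% of all genes. Jun had a log2 difference of 1.53 (SE 0.40, limma adjusted p = 0.00776) and Nr4a1 one of 1.53 (SE 0.40, limma adjusted p = 0.00732). Fos was at 2.96 (SE 1.37, limma adjusted p = 0.105) and Ier2 at 0.62 (SE 0.83), and the median was 1.60. Groups did not overlap for Fos, Jun, Junb and Nr4a1, 4 of 10 members against 26.8% of genes. All D + Q TA mice were male, so this contrast leans on the sex term. By transcripts every D + Q heart read female, so in D + Q mice sex and tissue cannot be told apart. A sex term read from the transcripts then rests on the vehicle mice. The counts of groups that did not overlap take no account of sex. With sex read from the transcripts, or without heart D + Q replicate 3, no member was called. With no sex term 6 were, and the share of all genes in that fit is not given. Without TA D + Q replicate 3 it was 7, in a fit that called 4329 of all genes higher, against 3829 with all mice. With all mice and labelled sex in the model, the number of members called in either treatment lay near the share of all genes called. In D + Q mice that number changed with the settings above.

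In the order of the 4 group means on the log2 scale, the TA groups were above the heart groups and vehicle hearts above D + Q hearts for all 10 members. The TA groups stood 0.000056 (Egr1) to 0.56 (Junb) apart and overlapped for every member. The lower TA group and the vehicle hearts did not overlap for Jun and Nr4a1 and did for the other 8. The vehicle and D + Q hearts did not overlap for Junb and Egr1 and did for the other 8.

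The 5 wider lists of the pathway were counted in both treatment comparisons, and limma called none of their genes. In TA, at an unadjusted p under 0.05 and the fold, 1 of 29 other early response genes was higher (Nfil3) and 1 lower (Klf2), 1 of 17 upstream regulators was higher (Crem) and 1 of 14 feedback inhibitors lower (Zfp36l1), and none of the 12 other AP-1 and 5 other EGR and NR4A genes tested. The medians of the lists were -0.0024 for the early response genes, -0.09 for the upstream regulators, -0.21 for the feedback inhibitors, 0.03 for the AP-1 genes and -0.08 for the EGR and NR4A genes, against -0.07 over all genes. The other genes with the smallest p in their lists were Atf4 (log2 fold change 0.31), Atf7 (-0.30), Egr3 (-0.76), Nr4a3 (0.40), Elk3 (-0.46) and Zfp36l2 (-0.30). All had a limma adjusted p of 0.999.

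In heart, 1 of 29 other early response genes was higher and 4 lower at an unadjusted p and the fold, while 1 of 13 feedback inhibitors, 1 of 10 other AP-1 genes and 1 of 5 other EGR and NR4A genes were lower and 0 of 17 upstream regulators moved past either limit. The medians were -0.23 for the early response genes, -0.10 for the feedback inhibitors, -0.06 for the AP-1 genes, 0.22 for the EGR and NR4A genes and 0.03 for the upstream regulators, against -0.0025 over all genes. The shares of all genes were 1.3% higher and 3.79% lower. Without D + Q replicate 3, the counts were 1 higher and 1 lower of the early response genes, 2 lower of the feedback inhibitors and 1 lower each of the AP-1 and the EGR and NR4A genes. Of all 15963 genes tested in that fit, 264 were higher and 646 lower. Egr3, a close relative of Egr1, was at 2.88, 1.93, 2.26 and 4.13 TPM with vehicle and 0.982, 1.06 and 0.640 TPM with D + Q, a log2 fold change of -1.18 (SE 0.24, limma adjusted p = 0.0980). The D + Q hearts were all lower. Nfil3, a bZIP repressor tied to the circadian clock, went the other way, at 2.25, 2.05, 3.58 and 3.09 TPM with vehicle and 6.09, 8.18 and 4.65 TPM with D + Q (log2 fold change 1.02, SE 0.22, limma adjusted p = 0.103). The mRNA of the upstream regulator Srf was at a log2 fold change of 0.23 (SE 0.07) in heart. The feedback inhibitor Zfp36, which destabilises early response mRNAs, was at -0.54 (SE 0.12, limma adjusted p = 0.110) and Batf, a bZIP partner of JUN, at -0.84 (SE 0.16, limma adjusted p = 0.0934). The other named genes of the lists were Mafk (-0.19), Nab1 (0.22), Arc (-0.69) and Trib1 (-0.44), none of which passed the threshold. Without D + Q replicate 3, Egr3 was at -0.77, Nfil3 at 1.23, Srf at 0.14, Zfp36 at -0.64, Batf at -0.86, Mafk at -0.052, Nab1 at 0.26, Arc at -0.66 and Trib1 at -0.50, with limma adjusted p-values of 0.269 to 0.851.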

How the data were processed

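Bulk RNA-seq came as 1 table of 15 libraries, each from 1 mouse. The authors trimmed reads with Trim Galore 0.6.10, quantified them with Salmon 1.10.3 on GRCm39 and summarised them per gene. The deposited values are TPM for 56980 genes, of which 56236 identifiers matched mouse GENCODE release M39. The annotation release used by the authors is not given in the sources used here. TPM keeps no depth.

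The limma package (3.58.1, in R 4.3.3) was fitted to log2(TPM + 0.5), with a trend in the prior variance, over genes at 0.5 TPM or more in at least 3 mice. Because 0.5 is added, fold changes and SDs of low genes such as Fosb are understated. The TA model held 1 surrogate variable estimated in 5 rounds, and the heart model held labelled sex, after the design the study gives for its count test, which needs counts and was not run. The 4-group model, which the study does not describe, held labelled sex too. Adjusted p-values are Benjamini-Hochberg over all genes tested. A gene was called where the adjusted p was under 0.05 and the log2 fold change was beyond 0.5 in either direction. The code was tested on simulated data.

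All members were named. From the other lists, the genes called were to be named and, where none was, the 2 with the smallest unadjusted p (1 of them is not reported here), and the genes most like the members were the 8 with the highest correlation in each tissue. The values of Srf and Btg2 over the mice were given as examples after they were seen. The members and lists were chosen with earlier results of these data known. Alternatives covered the pseudocount, filter, scaling, variance trend, fold threshold, covariates, replicate block and leaving out each mouse. Labels number mice within a group and do not tie numbers across groups.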

Additional observations from a re-analysis of the deposited data

Results flagged for a closer look

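Of 30 sets of values tested (each member in each group of 4 mice), 2 had 1 mouse far from the others, and both were vehicle heart replicate 2. Chance alone flags a share of about 0.05 of all sets, and 2 of 30 is close to that share. The 2 sets share 1 heart and are not independent. Its Fosl2 level, 18.02 TPM, lay below the other 3 vehicle hearts by a gap of 0.943 of the range of the group. Its Atf3 level, 2.75 TPM, lay below them by a gap of 0.876 of the range. This heart also had the highest summed atrial (4260 TPM), red cell (1231 TPM) and neutrophil markers (36.6 TPM) of the 7 hearts. Their part in the 2 low values was not tested. Without it, the log2 fold change with D + Q was -0.66 for Fosl2 and -1.34 for Atf3.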

How the results depend on the processing

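In TA, no setting called a member. The median log2 fold change of the members was 0.11 with no covariate (Egr1 0.000056, Atf3 0.35), -0.81 with labelled sex and in males only (Atf3 0.10, Nr4a1 -0.41), and from -0.82 to 0.0092 over the fits that leave out 1 mouse each (Atf3 -0.92 to 1.29, Nr4a1 -0.23 to 0.31), where 0 to 1 gene was called higher and 0 to 1 lower. In heart, no setting called a member. Genes called higher and lower were 0 and 0 with no filter, 3 and 22 with sex read from transcripts, 2 and 11 without a variance trend, and 11 higher after median-of-ratios scaling. Members lower at an unadjusted p were 3 with no filter and 1 with sex read from transcripts (Atf3 0.26, Nr4a1 0.16). Leaving out 1 mouse gave 0 (vehicle replicate 2) to 64 (vehicle replicate 3) genes called higher and 0 to 72 called lower (the same mice). Members lower at an unadjusted p were then 0 (without D + Q replicate 3) to 7 (without D + Q replicate 1). The median ran from -0.78 to -0.14, Atf3 from -1.34 to 0.72 and Nr4a1 from -0.39 to 0.43, the upper ends without D + Q replicate 3. For the counts of 1, 3 and 7 members, the shares of all genes at an unadjusted p are not given. These counts therefore do not show whether the members differ from all genes.

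Between tissues, members called in vehicle mice were 1 after median-of-ratios scaling and 1 to 3 on leaving out 1 mouse (Ier2 -0.025 to 0.63). Of all genes, 2930 were called higher after scaling and 3483 to 4749 on leaving out 1 mouse, against 4027 in the main fit. In D + Q mice the members called were 6 with no covariate, 0 with sex read from transcripts and 0 (without heart replicate 3) to 7 (without TA replicate 3), with a median of 0.83 to 2.14 and Ier2 at -0.10 to 1.26. Those 2 fits without 1 mouse called 2739 and 4329 of all genes higher. For the counts of 6, here and with the replicate block, the shares of all genes are not given. For the treatment difference between tissues, genes called were 5 higher with no filter, 2 lower after scaling and without a trend, and 3 lower with no covariate, and 5 to 13 higher and 0 to 2 lower on leaving out 1 mouse. The median of the members was 0.80 with no covariate, -0.17 with sex read from transcripts and -0.46 to 1.00 on leaving out 1 mouse. The causes were not tested.

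With the replicate number as a block, the TA median was 0.11 (Egr1 0.000056, Atf3 0.35), heart calls were 0 higher and 4 lower with Nr4a1 at 0.051, 6 members were called in D + Q mice between tissues, and the treatment difference had 4 genes higher and a median of 0.84. Mice with the same number had correlations of -0.30 to 0.037 over 4 TA pairs and -0.036 to 0.031 over 3 heart pairs. The labels do not say what the number stands for, and whether it marks a shared batch was not tested. With TPM and 3 or 4 mice per group, depth limits cannot be stated.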
